A study of Mus musculus with 36 samples.

Results

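The comparison set lymphoid-primed multipotent progenitors (LMPP) against LK cells of the same bone marrow, in 4 mice that did not have leukaemia. It used 8 of the 36 libraries of the series, 4 LMPP and 4 LK libraries, chosen by their labels as control bone marrow (BM) and paired by mouse. LMPP were sorted as Lin- c-Kit+ Sca-1+ Flt3+ cells and LK, labelled LK/CLP, as Lin- c-Kit+ Sca-1- cells. All 4 mice, and so both groups, carried Kmt2a-AFF1+, the gene fusion known from infant acute lymphoblastic leukaemia, and overexpressed miR-scramble, a scrambled microRNA. The control mice are thus not wild type, and their age, their sex and what drives the fusion are not given in the labels. The same mice gave 4 libraries of HSC/MPP, sorted like LMPP but Flt3-, called HSC below, and a second arm of mice with leukaemia, carrying the same fusion and overexpressing miR-130b per the labels, gave LMPP and LK from BM. Bulk RNA of freshly sorted cells was sequenced as stranded total RNA libraries for very small inputs.

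LMPP sit early in blood formation: they keep stem cell features, are primed for lymphoid fates through Flt3 signalling, and still make granulocytes and monocytes. The Sca-1 negative fraction holds the committed myeloid, erythroid and megakaryocyte progenitors, which load granules with neutrophil proteases under Cebpa and Gfi1, or haem and membrane proteins under Gata1 and Klf1. Committed progenitors also divide more and make more ribosomes than the cells above them.

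Counts per library ran from 7.37 to 11.9 M in LMPP and from 10.9 to 21.6 M in LK. Sensory receptor genes, which blood progenitors are taken here not to express, carried counts in every library, and their counts per kb over 1513 genes set a background for each library. This background came to 14.1 to 26.9% of counts in LMPP and 6.48 to 12.3% in LK, so it did not overlap between the groups. Mitochondrial genes held 1.59 to 2.70% of counts in LMPP and 4.54 to 5.15% in LK, and the single gene model Gm10800 held 17.4 to 28.2% in LMPP and 3.01 to 8.53% in LK. Rank correlations across genes were 0.887 to 0.955 between LMPP replicates and 0.983 to 0.990 between LK replicates. LMPP replicate 4 had the smallest background and the highest immunoglobulin counts of the 4 LMPP libraries. Genes were tested when their count exceeded 3 times the background for their length plus 10 counts in at least 4 of the 12 control libraries, and levels are CPM, counts relative to library size, scaled by trimmed mean of M values (TMM).

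Lists of azurophil granule, erythroid, ribosome biogenesis and respiration genes had medians below 0 for LMPP over LK under every scaling tried. Single genes of lymphoid priming (Dntt), stem cell identity (Hlf and Mecom) and antigen presentation (H2-Aa) were higher in LMPP under every scaling. Of 11166 genes tested by edgeR's quasi-likelihood test with the mouse as a block, 3731 (33.4%) were higher in LMPP and 3444 (30.8%) were lower at an adjusted p under 0.05. That is 64.3% of all genes tested, and the median log2 fold change was 0.02. Counts of list members below are to be read against these shares. All 4 LMPP libraries lay above all 4 LK libraries for 29.0% of genes and below them for 28.6%. The change ran with the level of the gene: the median log2 fold change was 0.33 in the lowest of 10 groups of genes by level above background and -1.07 in the highest. After the background was subtracted these medians were -0.22 and -0.63. With TMM as counted, 495 of 1117 genes were called higher in the lowest group and 100 of 1117 in the highest.

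**Figure D1:**
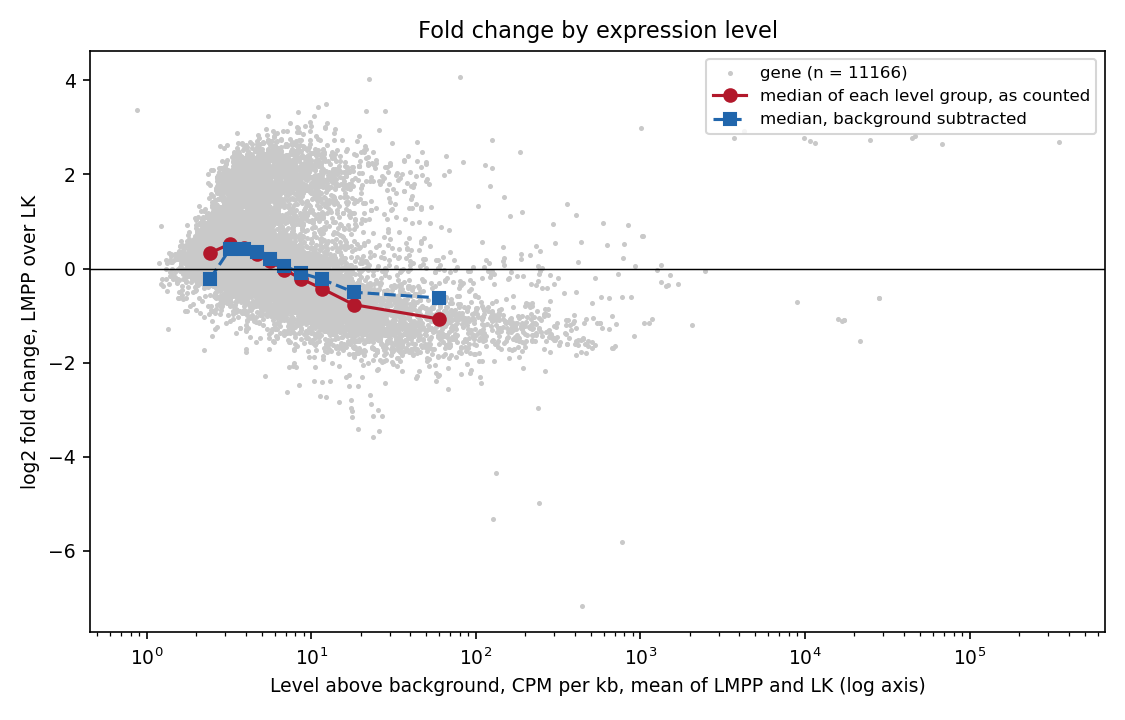
Each grey point is a gene, with its mean level above background in LMPP and LK on a log axis (CPM per kb) against its log2 fold change of LMPP over LK, and the lines join the medians of 10 level groups as counted and after background subtraction. The median falls with level, to -1.07 in the highest group as counted and -0.63 after subtraction.

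How libraries are scaled therefore sets the balance of calls. Scaling over all genes with at least 10 counts, background included, moved the median of all genes by -1.47 on the log2 scale and gave 658 genes higher and 8652 lower, whereas scaling over the 2000 genes of highest level moved it by 0.95 and gave 7810 higher and 596 lower. The part of background in these calls was not tested beyond these treatments. In the account below, a gene "held in all 5 treatments" was called in the same direction as counted, with background subtracted, with either of these scalings, and with subtraction and the 2000-gene scaling together. That left 658 genes higher in LMPP (5.89% of those tested) and 511 lower (4.58%). The 658 are all the genes called higher with scaling over all genes, the strictest of the treatments for rises. Some rises that held were of genes at nearly equal multiples of background in both groups, Mmp9, Slc4a1 and Cyp11a1 among them. Holding in all 5 treatments therefore does not by itself place a rise above background.

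The genes that define the sort moved with their gates. Flt3, the receptor tyrosine kinase used to gate LMPP, had 188, 212, 304 and 504 CPM in the 4 LMPP libraries and 37.5, 36.6, 48.8 and 27.8 CPM in LK. Ly6a, which encodes Sca-1, had 15.9, 22.0, 25.1 and 13.8 CPM in LMPP and 2.07, 4.22, 3.30 and 1.94 CPM in LK. Neither gene overlapped between the groups. Flt3 rose in LMPP by 2.94 ± 0.27 on the log2 scale (SE, edgeR adjusted p = 1.14e-06) and Ly6a by 2.75 ± 0.23 (adjusted p = 6.56e-07), and both held in all 5 treatments. Because both proteins chose the cells, these values check the labels and are not a finding. In bulk RNA, fewer cells of a type and less RNA per cell cannot be told apart.

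Of the 10 sort and surface markers, 8 were tested, and 3 were higher and 3 lower, against 33.4% and 30.8% of all genes. Their median log2 fold change was -0.04. Kit, the stem cell factor receptor on which both gates were positive, averaged 158 ± 36.3 CPM in LMPP and 263 ± 14.1 CPM in LK (SD, n = 4 each). Its log2 fold change was -0.75 with TMM but 0.18 with scaling over the 2000 highest genes, so its direction was not settled. Cd27, a costimulatory receptor of early lymphoid progenitors, averaged 47.9 CPM in LMPP and 22.8 CPM in LK, a log2 change of 1.07 that turned to -0.39 with scaling over all genes. Fcgr3, an Fc receptor of granulocyte and monocyte progenitors, fell by 1.12 and Ly6e by 1.10 with TMM, and neither held in all 5 treatments. Cd34 (log2 fold change 0.23) and Cd48 (-0.30), both surface proteins of early progenitors, were not called. Il7r and Rag1, the markers of common lymphoid progenitors, were at 1.50 and 1.31 times background in LMPP and at 1.62 and 1.22 times background in LK, so the libraries labelled LK/CLP showed no level of either gene beyond what the filter asks.

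**Figure D2:**
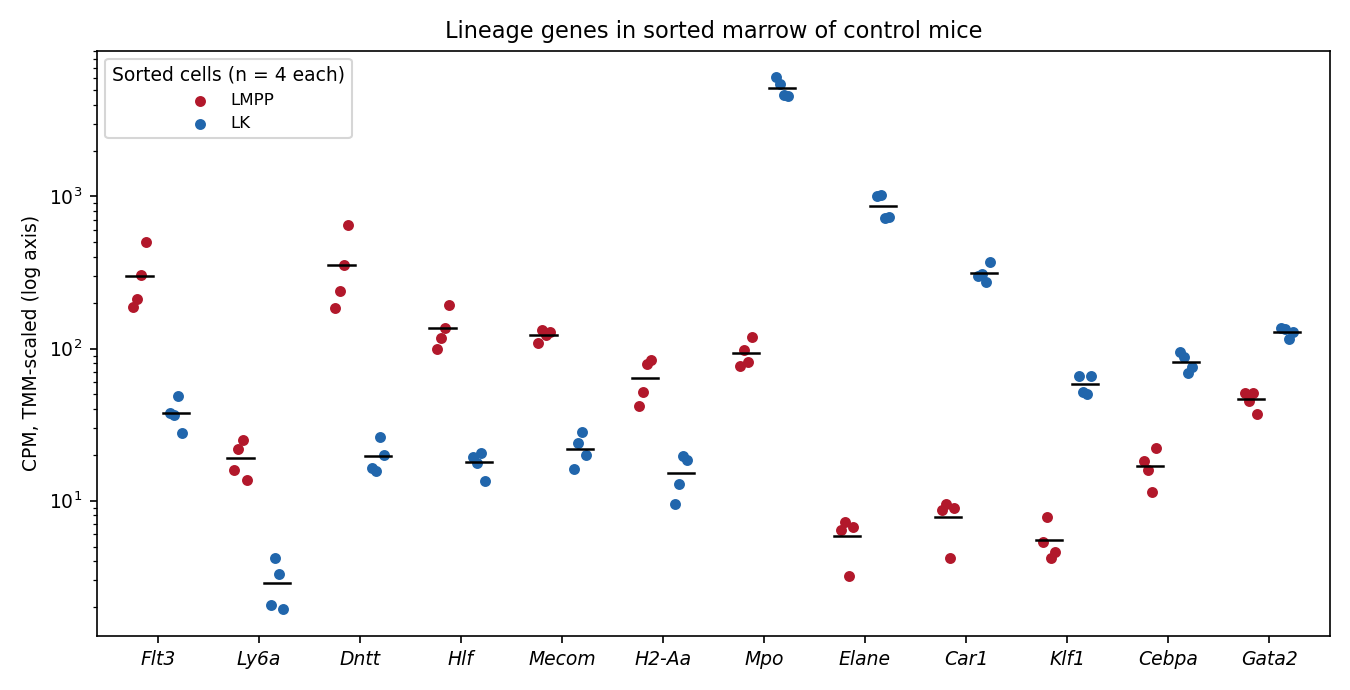
CPM on a log axis of 12 genes in each library, with LMPP left of LK for each gene, points for the 4 mice and black bars for the means. The first 6 genes lie higher in every LMPP library, and the last 6, from Mpo to Gata2, lie lower.

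Lymphoid priming was led by a single gene of antigen receptor assembly. Dntt, the terminal transferase that adds bases at V(D)J junctions, had 184, 240, 354 and 646 CPM in LMPP and 16.4, 15.6, 26.4 and 19.9 CPM in LK. The lowest LMPP library was well above the highest LK library, and LMPP replicate 4 was the highest of all. The log2 fold change was 4.07 ± 0.24 (SE, edgeR adjusted p = 2.52e-08), and the gene held in all 5 treatments. HSC of the same mice averaged 18.6 CPM, about the level of LK. The promoter of Dntt, shown because this gene had the largest rise among the genes named, lies at chr19:41029025-41029324 on the plus strand of GRCm38.p6 and is taken from RefSeq, 250 bases before to 50 after the start. Capitals mark CACNTG or its reverse complement, the E box that basic helix-loop-helix factors bind, which 48.3% of 27025 genes with a promoter hold and 15 of 20 lymphoid priming genes hold. Most of these 15, Rag1, Il7r, Ebf1 and Pax5 among them, did not pass the background filter.
Dntt: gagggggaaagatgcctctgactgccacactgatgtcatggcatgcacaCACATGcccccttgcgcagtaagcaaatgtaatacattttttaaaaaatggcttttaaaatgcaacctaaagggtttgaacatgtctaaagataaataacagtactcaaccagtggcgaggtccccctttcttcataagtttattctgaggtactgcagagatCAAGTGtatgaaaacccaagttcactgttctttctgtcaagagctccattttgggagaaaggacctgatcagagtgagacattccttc

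Of 25 lymphoid priming genes, 12 were tested, 8 were higher and none lower, with a median log2 fold change of 1.09 that turned to -0.38 with scaling over all genes. Held in all 5 treatments were Dntt, Gimap6, Lax1 and Il12a. Gimap6, a GTPase of lymphocyte survival, averaged 76.7 ± 25.7 CPM in LMPP and 10.7 ± 1.67 CPM in LK. Lax1, an adaptor of antigen receptor signalling, averaged 31.1 ± 6.22 CPM in LMPP and 4.44 ± 0.565 CPM in LK. Il12a, a cytokine subunit used as an LMPP marker here, averaged 52.2 ± 23.7 CPM in LMPP and 11.9 ± 1.10 CPM in LK. The groups did not overlap for any of these, and the log2 changes were 2.82, 2.81 and 2.07. Notch1, the receptor that commits cells to the T lineage, had 128, 151, 164 and 298 CPM in LMPP and 76.0, 66.7, 72.3 and 67.8 CPM in LK. Its log2 change of 1.33 became -0.13 with scaling over all genes, and that of Tespa1, which acts in thymocyte signalling, 1.14 with TMM, became -0.32. The other 13 members, including Rag2, Ebf1, Pax5 and Ccr9, did not pass the background filter.

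Stem cell regulators gave 2 rises and 1 fall that held in all 5 treatments. Hlf, a transcription factor of stem cells, had 98.7, 118, 137 and 195 CPM in LMPP and 19.5, 17.8, 20.7 and 13.6 CPM in LK. Mecom, which encodes Evi1, had 109, 132, 123 and 128 CPM in LMPP and 16.1, 23.8, 28.2 and 19.9 CPM in LK. Both were far apart between the groups, with log2 changes of 2.92 ± 0.20 and 2.50 ± 0.16 (SE, edgeR adjusted p = 1.40e-07 and 7.88e-08), and both held in all 5 treatments. Gata2, the stem and mast cell GATA factor, went the other way, with 51.1, 45.5, 51.2 and 37.4 CPM in LMPP and 136, 134, 115 and 129 CPM in LK. It fell by 1.48 ± 0.14 (adjusted p = 1.25e-06), the only member of its list to fall, and held in all 5 treatments.

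Of the 20 members of that list, 10 were tested, 8 were higher and 1 was lower, with a median of 1.04 that turned to -0.40 with scaling over all genes. Meis1, the Hox cofactor, averaged 94.6 ± 20.3 CPM in LMPP and 44.6 ± 2.43 CPM in LK. Its log2 change of 1.08 became -0.35 with scaling over all genes. Fgd5, which marks stem cells, was at 2.45 times background in LMPP and 2.60 times in LK. Hlf, Mecom and Meis1 averaged 135, 147 and 138 CPM in HSC of the same mice, so the LMPP mean with TMM lay nearer HSC than LK for all 3 genes. Gata2 averaged 121 CPM in HSC, near LK. Background came to 21.6 to 27.7% of counts in HSC, against 14.1 to 26.9% in LMPP and 6.48 to 12.3% in LK. HSC thus shared the higher background of LMPP, and its part in this nearness was not tested.

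The Hoxa cluster, Meis1 and other known targets of Kmt2a fusions were split. Of 28 genes, 20 were tested, and 9 were higher and 6 lower, against 33.4% and 30.8% of all genes. The median was -0.10 with TMM and 0.82 with scaling over the 2000 highest genes. Hoxa9, a main target of the fusion, had 59.1, 69.8, 80.9 and 129 CPM in LMPP and 28.4, 30.3, 27.9 and 28.3 CPM in LK, and Hoxa10 averaged 27.2 ± 10.4 CPM in LMPP and 9.43 ± 1.33 CPM in LK. The groups did not overlap, and the log2 changes were 1.54 ± 0.20 and 1.50 ± 0.20, but with scaling over all genes they were 0.10 and 0.06 and neither was called. Cdk6, a cell cycle kinase, and Myb, a transcription factor of progenitors, are targets too and fell by 1.64 and 1.59, and both held in all 5 treatments. Zeb2, a transcription factor of myeloid differentiation, averaged 98.9 ± 3.92 CPM in LMPP and 191 ± 11.7 CPM in LK, a fall of 0.95 that was -0.01 with the 2000-gene scaling.

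The largest differences were those of azurophil granules, the first granules that neutrophil progenitors fill. Elane, neutrophil elastase, had 6.39, 7.27, 3.21 and 6.74 CPM in LMPP and 1013, 1019, 723 and 728 CPM in LK. Mpo, myeloperoxidase, had 77.0, 97.4, 82.1 and 119 CPM in LMPP and 6071, 5494, 4666 and 4588 CPM in LK. In LMPP, Elane stood at only 2.50 times background, whereas in LK it stood at 1369 times. Elane fell by 7.17 ± 0.38 on the log2 scale (SE, edgeR adjusted p = 1.24e-08) and Mpo by 5.81 ± 0.28 (adjusted p = 1.07e-08).

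Ctsg, cathepsin G, had 17.1, 23.0, 12.7 and 10.1 CPM in LMPP and 525, 509, 469 and 444 CPM in LK. Prtn3, proteinase 3, had 18.2, 23.9, 26.9 and 18.5 CPM in LMPP and 484, 502, 386 and 416 CPM in LK. They fell by 4.98 and 4.35, and Cst7, a cysteine protease inhibitor, and Ms4a3, a marker of granulocyte and monocyte progenitors, by 3.57 and 3.14. All 16 members of the list were tested, 15 fell and none rose, the median was -2.50, and 12 held in all 5 treatments. Gstm1, a glutathione transferase, and Alas1, which starts haem synthesis in cells other than red cells, were among these 12. The member that was not called was Lyz2, lysozyme, with 37.4 ± 4.23 CPM in LMPP and 41.5 ± 1.90 CPM in LK. Summed over the list, the level was 430 to 575 CPM in LMPP and 7414 to 9552 CPM in LK.

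The promoters of Elane, Prtn3, Mpo and Ctsg are shown because these genes had the largest falls of the list. They come from RefSeq on GRCm38.p6 and span 250 bases before to 50 after the start: Elane at chr10:79886062-79886361 (plus strand), Prtn3 beside it at chr10:79879417-79879716 (plus), Mpo at chr11:87793534-87793833 (plus) and Ctsg at chr14:56102525-56102824 (minus). Capitals mark GAGGAAG, a core of the site bound by PU.1, searched on both strands.
Elane: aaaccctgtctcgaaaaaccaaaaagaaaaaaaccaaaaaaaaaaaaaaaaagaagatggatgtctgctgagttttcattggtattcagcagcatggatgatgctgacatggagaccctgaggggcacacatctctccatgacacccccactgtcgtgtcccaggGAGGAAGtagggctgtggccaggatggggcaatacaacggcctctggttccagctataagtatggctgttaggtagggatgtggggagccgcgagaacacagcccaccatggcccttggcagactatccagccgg
Prtn3: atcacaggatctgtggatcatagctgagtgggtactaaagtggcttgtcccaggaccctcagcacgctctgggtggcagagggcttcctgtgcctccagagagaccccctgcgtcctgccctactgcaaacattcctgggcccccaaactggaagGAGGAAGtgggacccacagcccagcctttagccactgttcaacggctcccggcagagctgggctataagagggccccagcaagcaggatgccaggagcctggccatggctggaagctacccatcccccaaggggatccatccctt
Mpo: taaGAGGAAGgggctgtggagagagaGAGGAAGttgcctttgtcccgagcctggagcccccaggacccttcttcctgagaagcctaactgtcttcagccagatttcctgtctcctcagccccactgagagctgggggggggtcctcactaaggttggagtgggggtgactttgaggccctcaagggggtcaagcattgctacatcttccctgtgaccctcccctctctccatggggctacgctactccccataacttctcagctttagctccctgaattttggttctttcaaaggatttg
Ctsg: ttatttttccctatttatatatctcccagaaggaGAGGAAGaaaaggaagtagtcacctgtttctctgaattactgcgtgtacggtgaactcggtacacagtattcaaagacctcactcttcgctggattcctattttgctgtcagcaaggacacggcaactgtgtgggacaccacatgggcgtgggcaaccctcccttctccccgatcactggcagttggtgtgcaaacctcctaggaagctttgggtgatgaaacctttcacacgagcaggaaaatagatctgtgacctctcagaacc
The match starts at base -85 of Elane and -95 of Prtn3, counted from the start site, at -216 of Ctsg, and at -247 and -224 of Mpo. It is present in 5 of the 14 azurophil genes with a promoter in the table and in 15.4% of all 27025 genes. A match is a description of these letters and not a measured site.

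Later neutrophil genes did not follow the azurophil list. Of 15 genes of secondary granules, 8 were tested, 6 were higher in LMPP and none was lower, with a median of 1.58. Ltf, lactoferrin, averaged 28.1 ± 7.56 CPM in LMPP and 7.08 ± 1.37 CPM in LK, but it stood at 3.05 times background in LMPP and 2.95 times in LK. Camp (4.43 and 4.28 times in LMPP and LK), Ngp (5.34 and 4.87) and Mmp9 (3.46 and 3.21), all granule proteins, also had nearly equal multiples in both groups. Only Mmp9 held in all 5 treatments, with an adjusted p of 0.042 by edgeR under scaling over all genes. The groups did not overlap in CPM, as for the background itself.

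Monocyte genes were mixed: of 13 genes, 10 were tested, and 3 were higher and 4 lower, against 33.4% and 30.8% of all genes. Their median of 0.11 turned to -1.34 with scaling over all genes. Ly6c2, the Ly6C antigen of monocytes, had 16.9, 12.1, 10.6 and 8.15 CPM in LMPP and 101, 95.9, 91.2 and 89.9 CPM in LK. F13a1, a coagulation factor subunit of monocyte progenitors, had 38.4, 25.1, 19.9 and 17.8 CPM in LMPP and 159, 132, 198 and 166 CPM in LK. Neither overlapped, and they fell by 3.02 and 2.74 and held in all 5 treatments. Ms4a6c, a membrane protein of monocytes, fell by 1.72 with TMM (edgeR adjusted p = 6.60e-05) and was not called with the 2000-gene scaling.

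Red cell genes formed the next group that was lower in LMPP. Car1, carbonic anhydrase I, had 8.69, 9.57, 4.22 and 8.99 CPM in LMPP and 299, 308, 272 and 372 CPM in LK. Klf1, the transcription factor that drives erythroid genes, had 5.37, 7.84, 4.22 and 4.64 CPM in LMPP and 66.2, 51.7, 50.3 and 66.1 CPM in LK. In LMPP these genes were at 2.62 and 1.43 times background, and the groups were far apart. Car1 fell by 5.33 ± 0.21 (SE, edgeR adjusted p = 2.11e-09), Klf1 by 3.40 ± 0.20 (adjusted p = 3.49e-08), Aqp1, a water channel of red cells, by 3.46, and Ermap, an erythroid membrane protein, by 2.49.

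Of 24 erythroid genes, 22 were tested, 15 fell and 3 rose, with a median of -1.18, and 9 of the 15 held in all 5 treatments. The beta globin genes were among the exceptions. Hbb-bt had 33.2, 50.9, 28.7 and 40.0 CPM in LMPP and 2.74, 5.25, 2.88 and 4.32 CPM in LK, and Hbb-bs averaged 28.7 ± 9.03 CPM in LMPP and 3.97 ± 0.862 CPM in LK. The groups did not overlap for either gene. They rose by 3.35 ± 0.21 and 2.82 ± 0.20 and held in all 5 treatments, although as near-identical copies their separate counts are uncertain. HSC averaged 10.8 CPM for Hbb-bt, below LMPP and above LK. The third gene that rose, Slc4a1, the anion exchanger of red cells, was at 3.25 times background in LMPP and 2.82 times in LK and held too.

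Haem synthesis and iron genes were lower in part: of 13, 12 were tested, 6 fell and 1 rose, with a median of -0.49 that turned to 0.48 with the 2000-gene scaling. Cpox, an enzyme late in haem synthesis, averaged 30.8 ± 5.57 CPM in LMPP and 91.1 ± 11.1 CPM in LK and was the one member to hold in all 5 treatments, with a fall of 1.57. Urod, an enzyme of the same pathway, fell by 1.07 and Fth1, the ferritin heavy chain, by 1.19, both with TMM. The GATA motif AGATAA, on either strand, is in the promoters of 6 of 19 erythroid genes, of none of the 14 azurophil genes and of 12.7% of all genes.

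Platelet and mast cell genes gave few changes that held. Of 18 megakaryocyte and platelet genes, 10 were tested and 7 were higher, with a median of 0.92 that turned to -0.57 with scaling over all genes. Mpig6b, an inhibitory receptor of platelets, averaged 25.0 ± 8.29 CPM in LMPP and 3.88 ± 2.24 CPM in LK, rose by 2.65 and was the one to hold. Vwf, von Willebrand factor, averaged 84.5 ± 19.8 CPM in LMPP and 42.5 ± 6.04 CPM in LK, with a log2 change of 0.98 that became -0.50 with scaling over all genes. Of 16 mast, basophil and eosinophil genes, 10 were tested, and 4 were higher and 3 lower, against 33.4% and 30.8% of all genes. Their median was -0.04 with TMM and 0.96 with the 2000-gene scaling. Cpa3, mast cell carboxypeptidase, had 4.86, 5.74, 8.03 and 3.93 CPM in LMPP and 18.9, 19.3, 29.8 and 27.8 CPM in LK, fell by 2.08 and held in all 5 treatments. Hdc, which makes histamine, fell by 1.01 with TMM, and Cyp11a1, a steroid synthesis enzyme of basophils, rose by 2.03 and held, at 3.07 times background in LMPP and 2.89 times in LK.

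Among 42 transcription factors of blood cell fate, 32 were tested, 8 were higher and 17 lower, and the median was -0.45 with TMM and 0.46 with the 2000-gene scaling. All 8 that held in all 5 treatments were lower in LMPP. Cebpa, which commits cells to granulocytes, had 18.2, 15.9, 11.4 and 22.2 CPM in LMPP and 95.2, 87.6, 69.1 and 75.8 CPM in LK. Zfpm1, the Gata1 cofactor, had 28.9, 45.9, 46.2 and 46.7 CPM in LMPP and 185, 164, 130 and 180 CPM in LK. The groups did not overlap, and the falls were 2.26 ± 0.20 and 1.97 ± 0.18 (SE, edgeR adjusted p = 9.11e-07 and 1.24e-06).

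Tal1, a partner of Gata factors, fell by 1.35 and Gfi1b, a repressor in erythroid and platelet progenitors, by 1.51, and both held as well. HSC averaged 101 CPM for Zfpm1 and 51.8 CPM for Tal1, between LMPP and LK, and 10.2 CPM for Cebpa, below both. Gata1, whose values were looked at for its role and not by the rule, had 26.6, 29.5, 13.1 and 15.7 CPM in LMPP and 43.3, 45.8, 45.1 and 61.2 CPM in LK, and was lower with TMM but not called with the 2000-gene scaling (log2 change -0.28).

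**Figure D3:**
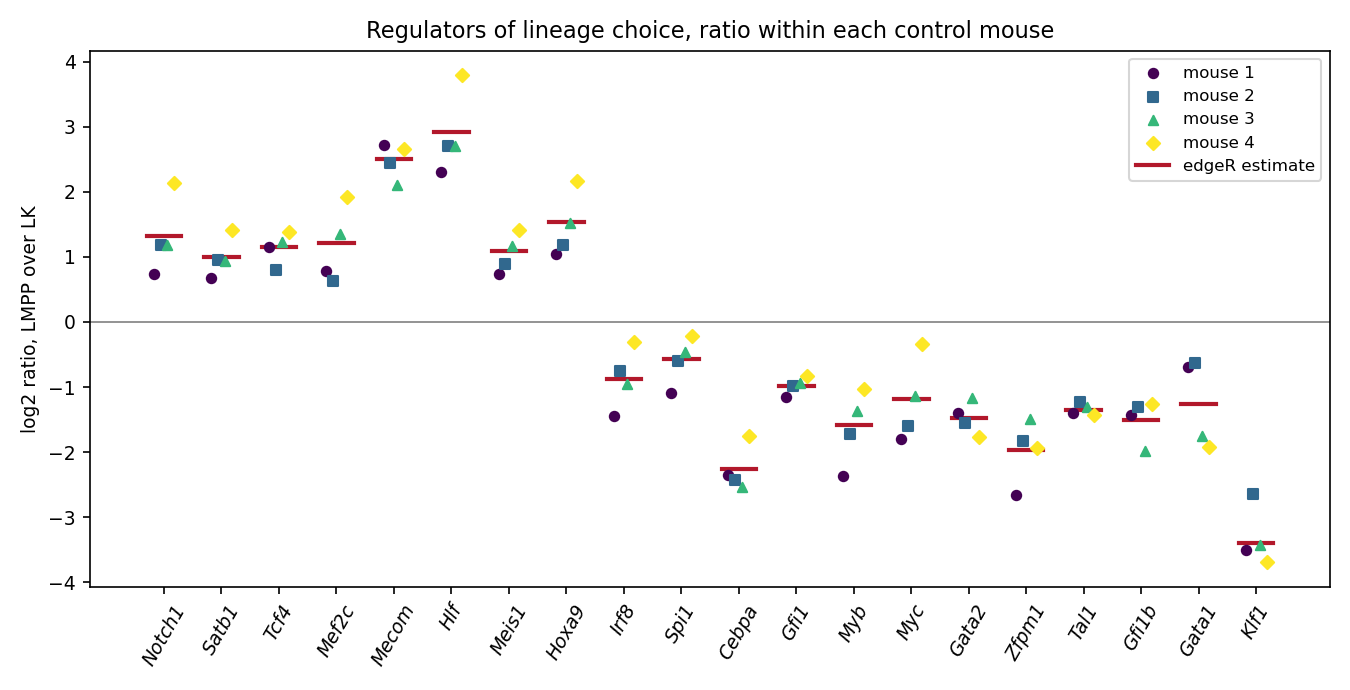
Log2 ratio of LMPP over LK within each of the 4 control mice for 20 regulators, with TMM-scaled CPM; red bars are edgeR estimates. Ratios of the first 8 are above 0 in all 4 mice and those of the last 12, from Irf8 to Klf1, are below 0; with scaling over all genes Notch1, Satb1, Tcf4, Mef2c and Meis1 turned below 0, and with the 2000-gene scaling Irf8 and Spi1 turned above 0. These 20 were picked by role after their values were seen.

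Most tested genes of antigen presentation and dendritic cells were higher in LMPP with TMM. Among 20 genes, 11 were tested and 10 rose, against 33.4% of all genes. Their median of 1.15 turned to -0.31 with scaling over all genes, and 3 held in all 5 treatments. H2-Aa, a class II chain, had 41.7, 52.2, 79.3 and 84.7 CPM in LMPP and 9.49, 12.8, 19.8 and 18.6 CPM in LK. H2-Eb1 averaged 45.2 ± 22.6 CPM in LMPP and 11.0 ± 2.84 CPM in LK, and Itgax, the CD11c integrin, averaged 42.2 ± 3.64 CPM in LMPP and 9.59 ± 1.70 CPM in LK. These 3 genes did not overlap between the groups and held in all 5 treatments, with log2 changes of 2.09, 1.99 and 2.15. H2-Ab1 rose by 1.86 with TMM and was not called with scaling over all genes, and Tcf4, the plasmacytoid dendritic cell factor, had a log2 change of 1.15 that became -0.31 there. Siglech and Xcr1, markers of mature dendritic cells, did not pass the background filter.

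Type I interferon genes leaned the same way with TMM. Among 32 genes, 17 were tested, and 14 were higher and 1 lower, against 33.4% and 30.8% of all genes. Their median of 0.68 turned to -0.78 with scaling over all genes. Ifi203 averaged 96.0 ± 24.8 CPM in LMPP and 25.6 ± 3.36 CPM in LK. Ifit3, at 16.4 ± 5.60 CPM in LMPP and 3.75 ± 2.56 CPM in LK, was the one gene to hold, and stood at 3.47 times background in LMPP and 2.75 times in LK. Stat2, which carries the interferon signal, had a log2 change of 0.78 that became -0.70 with scaling over all genes. The other 15 members, Isg15 and Irf7 among them, did not pass the background filter.

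Receptors and adhesion genes showed single changes rather than a common shift. Of 31 cytokine receptors, 25 were tested, and 10 were higher and 6 lower, against 33.4% and 30.8% of all genes. Their median of 0.21 turned to -1.28 with scaling over all genes. Ifngr1, an interferon gamma receptor chain, had 36.3, 31.2, 46.8 and 37.0 CPM in LMPP and 157, 153, 142 and 141 CPM in LK, and Il1r1, the interleukin 1 receptor, had 61.1, 46.3, 66.1 and 71.4 CPM in LMPP and 11.1, 14.3, 19.4 and 15.3 CPM in LK. Neither overlapped: Ifngr1 fell by 1.98 ± 0.13 and Il1r1 rose by 2.04 ± 0.15 (SE, edgeR adjusted p = 9.48e-08 and 1.88e-07), and both held in all 5 treatments. Il10ra rose by 1.73 with TMM and was not called with scaling over all genes.

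Of 25 chemokine receptor and adhesion genes, 17 were tested, and 3 were higher and 6 lower, against 33.4% and 30.8% of all genes. Their median was -0.21 with TMM and 0.76 with the 2000-gene scaling. Itgb1, the beta 1 integrin, averaged 64.5 ± 12.6 CPM in LMPP and 150 ± 4.81 CPM in LK, and its fall of 1.22 held in all 5 treatments. Its partner Itga4 fell by 1.14 and Cd44, the hyaluronan receptor, by 0.96 with TMM. Alcam, an adhesion molecule, had a log2 change of 1.19 that became -0.28 with scaling over all genes.

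Growth genes were lower in LMPP as whole lists with TMM. All 28 genes of ribosome biogenesis and other Myc targets were tested and 28 fell, with a median of -1.26, and 13 held in all 5 treatments. Srm, spermidine synthase, had 18.2, 26.4, 22.9 and 26.6 CPM in LMPP and 108, 94.5, 78.8 and 92.1 CPM in LK, and Nolc1, a nucleolar protein, had 62.1, 70.2, 66.9 and 81.6 CPM in LMPP and 251, 227, 218 and 255 CPM in LK. The groups did not overlap for either. Srm fell by 1.97 ± 0.14 (SE, edgeR adjusted p = 1.67e-07), Nolc1 by 1.76, Odc1, which makes polyamines, by 1.69, and Ddx21, a nucleolar helicase, by 1.70. Pes1, of the same process, fell by 1.24 with TMM but was not called with the 2000-gene scaling. Over all genes of the highest of the 10 level groups the median was -1.07.

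Respiration genes showed a like pattern, with 22 of 23 tested members lower, none higher, a median of -1.33, and 10 that held in all 5 treatments. Atp5b, the catalytic subunit of ATP synthase, had 99.7, 115, 147 and 210 CPM in LMPP and 552, 485, 496 and 518 CPM in LK, and Cycs, cytochrome c, had 31.5, 32.9, 29.5 and 31.9 CPM in LMPP and 85.6, 74.6, 77.7 and 78.3 CPM in LK. Their falls were 1.88 and 1.33. Uqcrc1, Uqcrfs1 and Cox6c, of respiratory complexes, fell by 1.42, 1.68 and 1.56 and held too, while Ndufv1, with a fall of 1.17, did not. Of 20 glycolysis genes, 19 were tested, 12 fell and 3 rose, with a median of -0.98, and 6 of the 12 held. With subtraction and the 2000-gene scaling together, 6 glycolysis genes were higher and 6 lower, and the median was -0.0036. Pgam1, phosphoglycerate mutase, averaged 45.3 ± 7.92 CPM in LMPP and 187 ± 15.8 CPM in LK, Ldha, lactate dehydrogenase, averaged 73.6 ± 16.5 CPM in LMPP and 272 ± 13.3 CPM in LK, and Eno1, enolase, averaged 94.0 ± 15.1 CPM in LMPP and 287 ± 34.2 CPM in LK. The lactate carrier Slc16a1 fell by 1.86.

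Of 50 cell cycle genes, 49 were tested, 38 fell and 2 rose, and the median was -0.79 with TMM and 0.15 with the 2000-gene scaling. The 11 that held in all 5 treatments included genes of DNA synthesis. Rrm2, a subunit of ribonucleotide reductase, had 24.5, 23.2, 25.3 and 34.1 CPM in LMPP and 82.4, 68.2, 89.7 and 98.4 CPM in LK. Dut, which removes dUTP, averaged 32.7 ± 5.89 CPM in LMPP and 109 ± 9.11 CPM in LK. They fell by 1.66 and 1.73, and the helicase subunits Mcm5 and Mcm2 by 1.50 and 1.44 and the cyclin Ccna2 by 1.42. Cdt1, which loads the helicase, fell by 1.22 with TMM and was not called with the 2000-gene scaling. All 4 LMPP libraries lay below all 4 LK libraries for 36 of the 49 genes, against 28.6% of all genes. That share is not matched by level. In the highest of the 10 level groups 842 of 1117 genes were called lower, and in the lowest 46 of 1117.

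Among 24 immediate early and heat shock genes, 9 were tested, 2 were higher and 5 lower, with a median of -0.52 that was 0.40 with the 2000-gene scaling. The chaperones Hsp90aa1 and Hspa8 averaged 269 ± 63.6 and 491 ± 162 CPM in LMPP and 1004 ± 86.3 and 1404 ± 95.1 CPM in LK, and their falls of 1.91 and 1.54 held in all 5 treatments. Btg2, an antiproliferative early gene, rose by 1.62 with TMM and was not called with scaling over all genes. Fos, Jun and Egr1, which respond to cell handling, did not pass the background filter. Of 24 cholesterol synthesis genes, 17 were tested, 5 were higher and 1 lower (median 0.25 with TMM and -1.22 with scaling over all genes), and none held. Mvd, an early enzyme of that pathway, rose by 1.57 with TMM and was not called with scaling over all genes. Of 18 BCL2 family genes, 8 were tested, and 3 were higher and 3 lower, against 33.4% and 30.8% of all genes. Their median was -0.21 with TMM and 0.73 with the 2000-gene scaling, and none held.

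**Figure D4:**
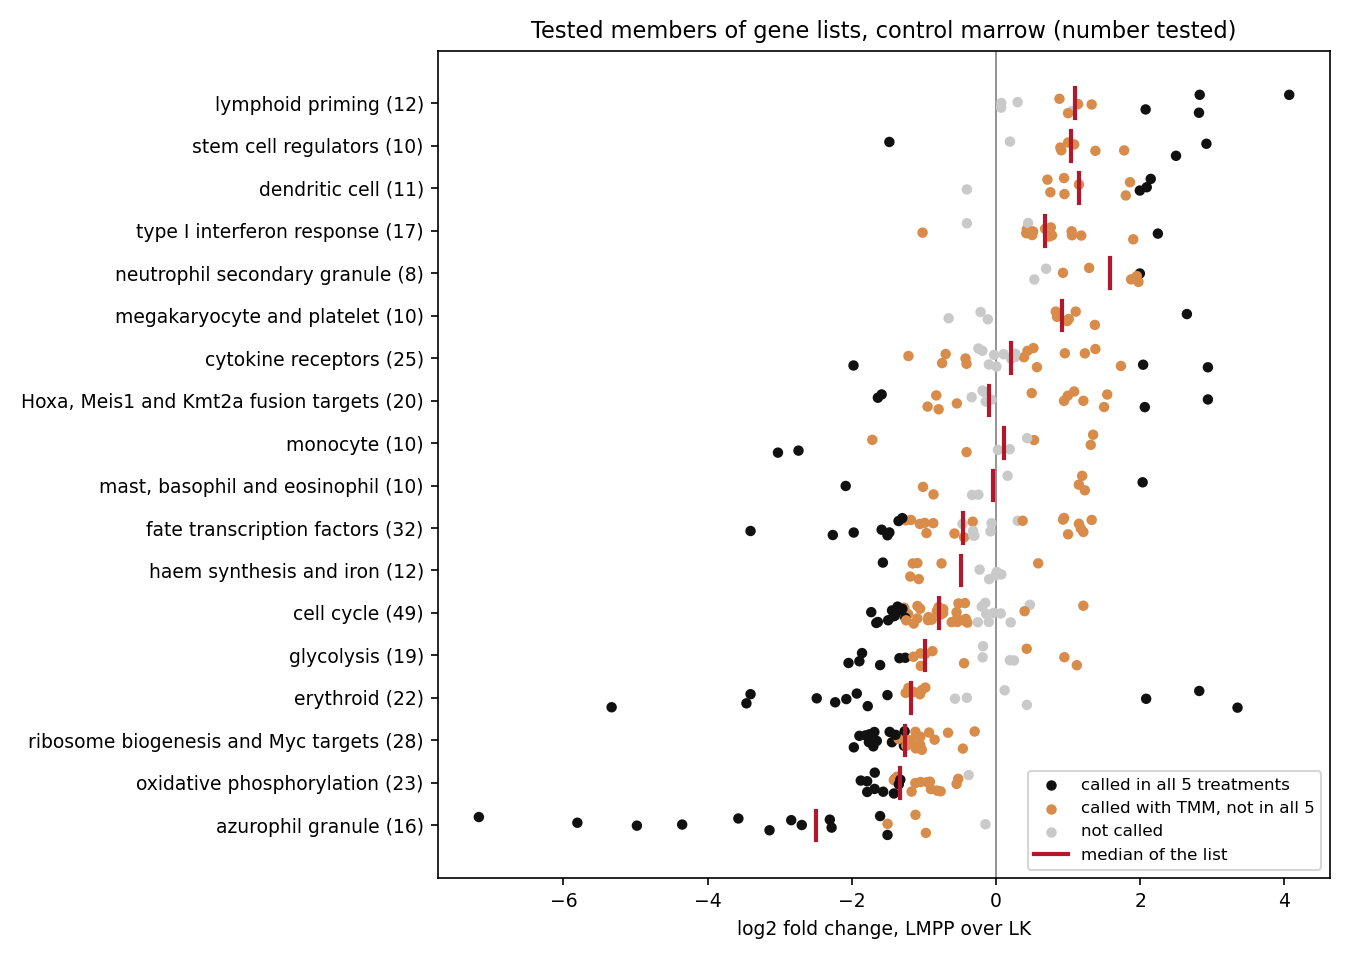
Log2 fold change of LMPP over LK for each tested member of 18 gene lists, with the number tested in brackets; black points held in all 5 treatments, orange points were called with TMM but not in all 5, grey points were not called, and red bars are list medians. The azurophil list reaches -7.17 and the lymphoid priming list 4.07.

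Outside the lists, the 10 largest rises among genes of at least 10 CPM held several further genes. Myl10, a myosin light chain, had 44.8, 47.6, 55.8 and 71.4 CPM in LMPP and 3.47, 2.56, 4.57 and 2.47 CPM in LK. It was at 19.8 times background in LMPP and 4.02 times in LK, and rose by 4.02 ± 0.20 (SE, edgeR adjusted p = 1.07e-08). Chga, chromogranin A of secretory granules, averaged 48.6 ± 14.3 CPM in LMPP and 6.06 ± 2.01 CPM in LK. Gem, a small GTPase, averaged 37.9 ± 15.5 CPM in LMPP and 4.84 ± 0.552 CPM in LK, and Slc16a11, a transporter, averaged 47.8 ± 20.3 CPM in LMPP and 6.32 ± 0.236 CPM in LK. These 4 genes held in all 5 treatments and did not overlap between the groups. Sgsm1 (3.68 times background in LMPP and 1.79 in LK) and Vmn1r103 (5.05 and 2.62) were also among the 10 largest rises, and Vmn1r103 is itself a pheromone receptor gene of the set that defined the background. Mt1, metallothionein 1, was among the 10 largest falls, with 6.65, 5.74, 1.81 and 5.48 CPM in LMPP and 45.1, 47.7, 33.3 and 45.6 CPM in LK.

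Markers of other cells that a marrow sort could hold were mostly at background. Of 10 mature B and plasma cell genes 1 passed the filter, Jchain, the joining chain of antibodies, with 5.88, 5.74, 5.62 and 21.4 CPM in LMPP and 0.913, 1.28, 1.62 and 0.794 CPM in LK. LMPP replicate 4 stood apart, and HSC replicate 3 had 717 CPM. Without these 2 libraries 7246 genes were called in place of 7175. Of 12 T and NK genes 1 passed, Lck, at 4.34 times background in LMPP and 2.99 times in LK. Of 13 stromal and endothelial genes 3 passed, among them Cdh5 (3.38 and 3.15 times in LMPP and LK) and Col1a1 (3.03 and 3.07), and of 12 macrophage genes 3 passed. The summed levels of these lists were 152 to 230, 108 to 194, 301 to 477 and 157 to 266 CPM in LMPP and 27.3 to 61.9, 26.3 to 56.7, 126 to 184 and 88.8 to 119 CPM in LK, in the order B and plasma, T and NK, stroma, macrophage. No member of these lists was at 0 in any of the 8 libraries. Their part in the results was not tested.

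The same contrast was compared with that in leukaemia BM, where LMPP and LK came from different mice. Leukaemia, the overexpressed microRNA and the deposited table change together between the arms, so their parts in any difference cannot be told apart. In control BM minus leukaemia BM, the LMPP over LK change differed for 5372 of 15295 genes (35.1%) by edgeR's interaction test without a mouse block. In that fit 8711 genes were called between LMPP and LK in control BM and 35 in leukaemia BM. The 31 called in both had the same direction, but over all 15295 genes the rank correlation of the 2 changes was -0.04. Counts per library ran from 1.91 to 30.4 M in leukaemia LMPP and from 11.2 to 16.8 M in leukaemia LK. The smallest was leukaemia LMPP replicate 3, and without it the change differed for 5299 genes. Background was 0.783 to 6.35% of counts in leukaemia LMPP and 0.943 to 8.67% in leukaemia LK, so it overlapped between those cell types. With background subtracted, 3237 genes differed. The 2 tables were deposited separately as unscaled counts and were scaled together here.

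Mpo had 68.0, 92.2, 78.8 and 123 CPM in control LMPP and 7200, 6075, 4928 and 5164 CPM in control LK. In leukaemia it had 2196, 157, 252 and 492 CPM in LMPP and 1680, 2192, 2490 and 1780 CPM in LK. Control LMPP lay below control LK in every library, while 1 leukaemia LMPP library lay among the leukaemia LK libraries. The log2 changes were -6.01 in control and -1.39 in leukaemia, a difference of -4.62 ± 0.72 (SE, edgeR adjusted p = 0.000296). Ctsg differed by -3.98, Elane by -5.48, Klf1 by -3.49 and Car1 by -4.68. In all 8 leukaemia libraries Klf1 was at 3.62 CPM or less and Car1 at 8.24 CPM or less. Elane had 183, 2.41, 0 and 1.47 CPM in leukaemia LMPP and 41.3, 252, 349 and 122 CPM in leukaemia LK. Only LMPP replicate 1 was high for Elane among the leukaemia LMPP libraries, and the others lay below every leukaemia LK library, as in control.

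Flt3 rose by 2.81 in control and had a log2 change of 0.81 in leukaemia, a difference of 2.00 ± 0.59 (edgeR adjusted p = 0.013). In leukaemia it had 228, 815, 532 and 521 CPM in LMPP and 425, 119, 288 and 363 CPM in LK, and these overlapped. For Ly6a the log2 changes were 2.53 in control and 3.60 in leukaemia (adjusted p of the difference 0.160) and for Dntt 4.00 and 2.98 (0.324). Both were called in leukaemia BM as well. Ly6e changed by -1.25 in control and 0.31 in leukaemia, a difference of -1.56. Mecom differed by 1.22. Hlf differed by 2.33 as counted but by -2.16 with background subtracted, and it was at 3.46 CPM or less in all leukaemia libraries.

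Growth lists separated the arms most evenly with TMM. All 28 ribosome biogenesis genes and 21 of 23 respiration genes differed, against 35.1% of all genes tested. Their medians were -1.47 and -1.53 in control BM and -0.14 and -0.16 in leukaemia BM. Over all genes, 5372 differed as counted with TMM, 3237 with background subtracted and 9987 with the 2000-gene scaling. Background was 14.1 to 26.9% of counts in control LMPP and 0.783 to 6.35% in leukaemia LMPP, and its part was not tested. Leaving out predicted and clone names, the 8 genes of smallest p in the interaction were lower in control LMPP than in control LK. They were Ctsg, Lgals1 (galectin 1, difference -2.50), Ybx3 (an RNA binding protein, -2.36), Ddx39 (an RNA helicase, -1.56), Minpp1 (an inositol phosphatase, -2.42), Mthfd1 (folate metabolism, -1.98), E2f4 (a cell cycle repressor, -2.09) and Tex2 (-1.82). Lgals1, for example, had 13.3, 21.2, 14.1 and 22.0 CPM in control LMPP and 144, 105, 114 and 119 CPM in control LK, against 234, 155, 171 and 174 CPM in leukaemia LMPP and 188, 209, 202 and 283 CPM in leukaemia LK. Only the control LMPP libraries were low.

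**Figure D5:**
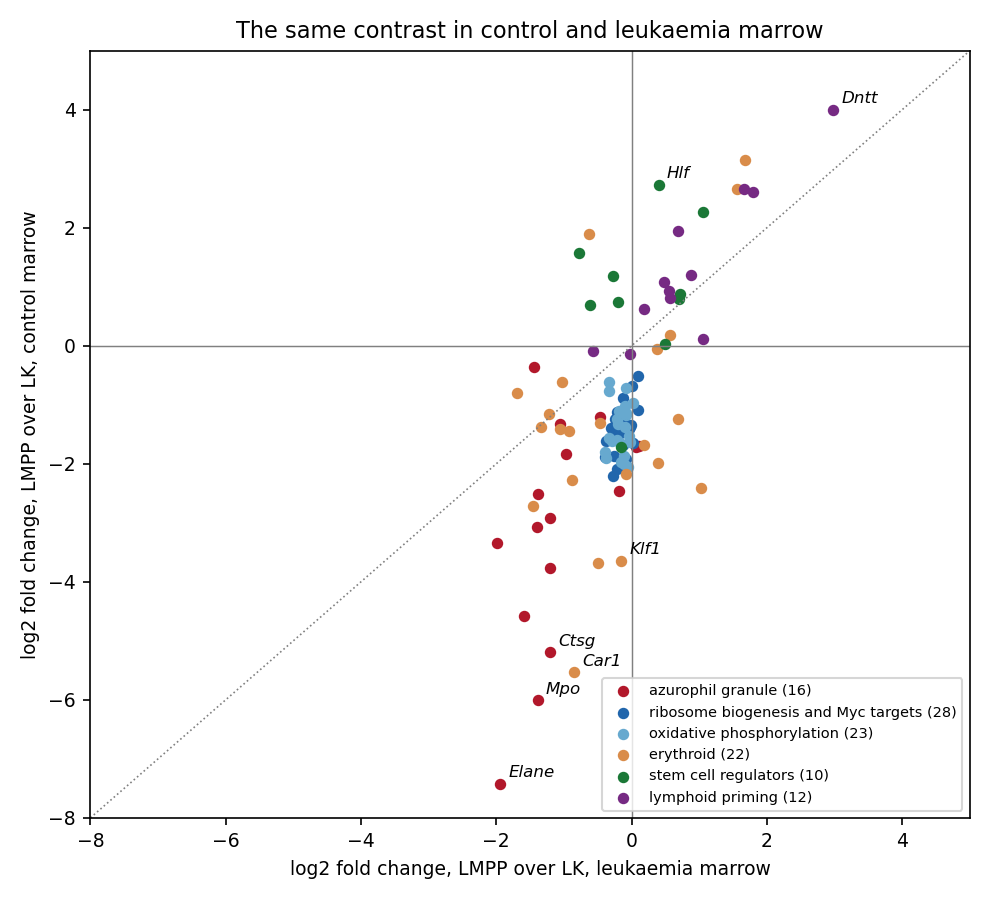
Log2 fold change of LMPP over LK in control BM (vertical) against that in leukaemia BM (horizontal) for the tested members of 6 lists, from a fit of 24 BM libraries; the dotted line marks equal change. Most azurophil genes lie below the line, with Elane at -7.42 in control and -1.94 in leukaemia, and the ribosome and respiration genes lie near 0 on the horizontal axis. Elane ranged from 0 to 183 CPM across the leukaemia LMPP libraries, with replicate 1 the highest.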

How the data were processed

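The authors deposited whole counts per gene in 2 tables, named as normalised although their totals differ between libraries, and they were used as counts. The submitters' processing notes name GRCm39 and DESeq2, with no version. The sources used here do not give an aligner, a counter or whether strand was used, so overlapping genes, antisense genes and near-identical copies are uncertain. Of 55414 identifiers, 52133 were matched to a symbol and exon length from GENCODE for GRCm38, and no coordinates were taken from one build to another. Those with no symbol took 8.34 to 21.1% of counts in LMPP and 25.3 to 37.7% in LK; they could not pass the filter.

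Library totals of the 8 libraries ran from 7.37 to 21.6 M counts, and replicates were taken as separate mice by their labels. The design text of the series speaks of a single miR-scramble control mouse, whereas the labels give 4 mouse ids, and the labels were followed. The test was edgeR 4.0.16 (glmQLFit, glmQLFTest) in R 4.3.3 over the 12 control BM libraries, with cell type and mouse, TMM, and Benjamini-Hochberg adjustment over all genes tested at 0.05. Libraries with the same number come from the same mouse per the labels, which is why the mouse is a block; deviations from the group means of LMPP and LK correlated within mice at -0.44, 0.05, -0.05 and 0.16, and in 0 of 4 mice was the own partner the best. Background per library was counts per kb over 1513 protein-coding sensory receptor genes. Alternatives used DESeq2 1.42.0 and limma 3.58.1 (limma-trend). The fits were tested on simulated data. Genes were named by a rule: the 10 largest called changes in each direction (all 4 mice alike, at least 10 CPM, no predicted-gene symbol), every sort marker, up to 6 members of each of 27 lists by smallest p, and 8 genes of the interaction; 108 of the 150 it gives are in the text, and some others are not reported here. Of 547 list entries, 543 were matched. Members and lists were chosen with earlier results of these data known.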

Additional observations from a re-analysis of the deposited data

Results flagged for a closer look

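In 8 of 216 groups of 4 libraries (108 named genes in LMPP and in LK), 1 library's gap to its nearest neighbour was, as a share of the group's range, above Dixon's 95% critical value for 4 values; chance alone gives about 1 in 20 such groups. In LMPP these were Chga in replicate 4 with 70.0 CPM (the others 39.4 to 43.0), Jchain in replicate 4 with 21.4 CPM (5.62 to 5.88), Car1 in replicate 3 with 4.22 CPM (8.69 to 9.57) and Zfpm1 in replicate 1 with 28.9 CPM (45.9 to 46.7). In LK they were Fgd5 in replicate 1 with 6.45 CPM (13.1 to 14.0), Hbb-bs in replicate 2 with 5.25 CPM (3.44 to 3.73), Gfi1b in replicate 4 with 50.7 CPM (39.0 to 40.3) and Cox6c in replicate 1 with 118 CPM (90.9 to 95.0).

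The LMPP over LK change differed between control and leukaemia BM, by edgeR's interaction test, for 5372 genes. Among the genes whose difference is reported, the log2 difference of control minus leukaemia was -5.48 for Elane, -4.68 for Car1, -4.62 for Mpo, -3.98 for Ctsg, -3.49 for Klf1, -2.50 for Lgals1, -2.42 for Minpp1, -2.36 for Ybx3, -2.09 for E2f4, -1.98 for Mthfd1, -1.82 for Tex2, and -1.56 for both Ddx39 and Ly6e. It was 2.33 for Hlf, 2.00 for Flt3 and 1.22 for Mecom. Dntt and Ly6a were tested in the same way and were not called.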

How the results depend on the processing

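Counts of called genes depended on the genes tested and on the scaling. In place of 7175 genes, 34279 were called without the background filter (30902 higher) and 37205 without any filter (33943 higher), and 4699 with a filter at 5 times background (1269 higher). Scaling over all genes with at least 10 counts gave 658 higher and 8652 lower, scaling over the 2000 highest genes 7810 higher and 596 lower, and that scaling after subtraction 779 lower. Without the replicate block 7397 genes were called, and no list median changed sign. DESeq2 called 7270, limma-trend 7037, and leaving out single libraries or mice gave 5977 to 7344 (3015 to 3837 higher, 2962 to 3507 lower). For the interaction, 3237 genes were called with background subtracted, 9987 with the 2000-gene scaling, and 3926 to 6027 with a library left out. All-gene scaling turned the log2 change of Cd34 to -1.23, Cd27 to -0.39, Tespa1 to -0.32, Notch1 to -0.13, Meis1 to -0.35, Vwf to -0.50, Tcf4 to -0.31, Alcam to -0.28 and Stat2 to -0.70, and list medians to -0.38 (lymphoid priming), -0.40 (stem cell), -1.34 (monocyte), -0.57 (megakaryocyte), -0.31 (dendritic), -1.28 (cytokine receptors), -1.22 (cholesterol), -0.78 (interferon) and -1.0 (macrophage). The 2000-gene scaling turned Kit to 0.18 and Cd48 to 0.62, and medians to 0.89 (sort markers), 0.48 (haem), 0.96 (mast), 0.46 (transcription factors), 0.82 (Hoxa and targets), 0.76 (adhesion), 0.15 (cell cycle), 0.40 (immediate early) and 0.73 (BCL2). With subtraction as well, Kit was 0.14 and the medians 0.88 (sort markers), 0.51 (mast), 0.32 (transcription factors), 0.80 (Hoxa and targets), 0.40 (adhesion) and 0.30 (BCL2). Under that treatment the medians of the cell cycle, haem and immediate early lists were -0.19, -0.11 and -0.45. At 5 times background the medians of the monocyte, megakaryocyte and cytokine receptor lists were -0.41, -0.16 and -0.028. These scalings assume that all genes, or the highest genes, are on balance equal in both groups, which was not tested. With all libraries thinned to the smallest, 6544 genes were called.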
